A study of Arabidopsis thaliana with 9 samples.

Results

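The members of the autophagy conjugation machinery described here were ATG8B, ATG8C, ATG8D, ATG8F, ATG8G, ATG8H and ATG3 of Arabidopsis thaliana. They were taken as every probe set that the array's platform annotation ties to a single gene named by 1 of these 7 symbols in a reference annotation. That gave 7 probe sets, 1 per gene, out of 22746 tested, which name 13286 genes where a probe set is tied to a single gene. Their values come from 9 Affymetrix arrays, with 3 biological replicates for each of 3 genotypes, all in the Columbia background. The first genotype, 35S:AGL15, expresses AGL15, a gene for a transcription factor of the MADS family, from the constitutive cauliflower mosaic virus promoter. The second was a double mutant with the insertional loss-of-function alleles agl15-4 and agl18-1, called agl15 agl18 below. The third was wild type. In all 3, seeds germinated in shaken liquid MS medium that held 2% sucrose, 10 mM MES as a buffer and 4.5 µM 2,4-D, a synthetic auxin, with 23 h light and 1 h dark each day. Tissue was frozen on day 10, and the labels name it a culture of somatic embryos formed at the shoot apical meristem. The sources used here do not say how many plants were pooled for an array or how many transgenic lines were used.

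Autophagy encloses cytoplasm in a double membrane, the autophagosome, which delivers it to the vacuole for breakdown. ATG8 is a small ubiquitin-like protein that is joined to the lipid phosphatidylethanolamine on the growing membrane. There it helps the membrane expand and holds the receptors that bring in cargo. ATG4 trims the end of a new ATG8, ATG7 activates it, and ATG3, the E2-like enzyme, passes it to the lipid. Arabidopsis has a family of ATG8 genes, whereas ATG3 is a single gene. ATG8H and ATG8I form a branch of the family whose proteins already end in the glycine that is joined to the lipid. Autophagy recycles nutrients in starved and senescing plant tissue.

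Values are the deposited linear intensities, in arbitrary units, and changes are differences of mean log2 intensity. A change was called at an adjusted p under 0.05 in limma's moderated test, with Benjamini-Hochberg adjustment over the 22746 probe sets, and "rose" and "fell" refer to that threshold. The arrays share a mean intensity, trimmed by 2% at either end, of 500.04 to 500.06. Median intensities ran from 132 to 199. Array background, taken as the brightest of 27 dim control probe sets, lay between 13.7 and 40.5, and all 7 members were above it on all 9 arrays. The spike-in controls (18 probe sets) were brighter on 35S:AGL15 replicate 3 and on all 3 agl15 agl18 arrays than on any wild type array. The 25S ribosomal RNA control read 10256 to 13667 in 35S:AGL15, 15283 to 19836 in agl15 agl18 and 7701 to 10549.9 in wild type. The part of the spike-in and ribosomal signals in the results below was not tested beyond the fits given with those results. Of the meristem markers measured, CLV3 was below background on all 9 arrays and LAS was above it on all 9. The embryo genes BBM and BZIP53 were above background on all 9 arrays.

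The probe sets kept much the same order of brightness in every genotype. Among the 6 ATG8 probe sets, that of ATG8F was the brightest on 9 of 9 arrays, that of ATG8B was the dimmest but 1 on 9 of 9, and that of ATG8H was the dimmest on 9 of 9. ATG8C came next after ATG8F on 8 arrays, and ATG8G took that place on agl15 agl18 replicate 3. Place 3 went to ATG8G on 5 arrays, ATG8D on 3 and ATG8C on 1, so ATG8C, ATG8D and ATG8G were neighbours whose order was not fixed. ATG8F exceeded ATG8C 2.06-, 2.73- and 1.64-fold on the 35S:AGL15 arrays, 1.09-, 2.03- and 1.70-fold on the agl15 agl18 arrays and 3.60-, 3.34- and 2.71-fold on the wild type arrays. The lead of ATG8F over ATG8C was thus greatest on 2 wild type arrays and nearly gone on agl15 agl18 replicate 1. Probe sets differ in how strongly they hybridize, so this is an order of brightness and not of transcript number.

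**Figure D1:**
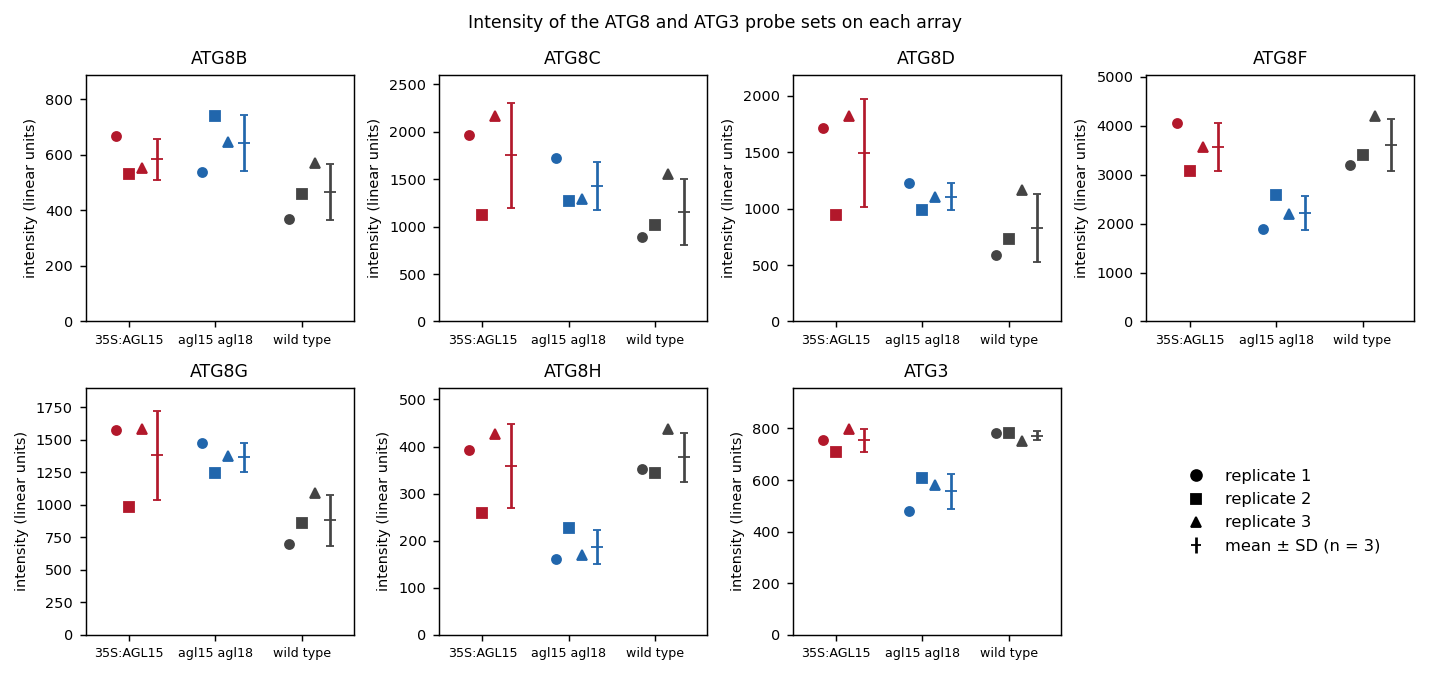
Deposited intensity (arbitrary units, linear axes from 0) of the 7 members in 35S:AGL15, agl15 agl18 and wild type, with 1 point per array and the mean ± SD of 3 arrays beside it. ATG8F, ATG8H and ATG3 are lowest on the agl15 agl18 arrays, whereas the ATG8C and ATG8D points of 35S:AGL15 are spread widely.

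In agl15 agl18 against wild type, 2 of the 7 members fell, ATG8F and ATG8H, and no member rose. The share of all probe sets called lower in that comparison was 15.0%, the share called higher 3.90% and the share called in either direction 18.9%. With 7 members, 2 calls are not set apart from that background. The 7 members had a median change of 0.34 on the log2 scale, with −0.16 for all probe sets. Groups that did not overlap were found for 4 members, ATG8G higher and ATG8F, ATG8H and ATG3 lower, against 15.8% of all probe sets higher and 30.3% lower. At an unadjusted p under 0.05 the count was 4 of the 7, beside 7800 of the 22746.

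The probe set of ATG8F read 4054, 3071 and 3562 in 35S:AGL15 (mean 3562 ± 492, SD), 1884, 2579 and 2201 in agl15 agl18 (2221 ± 348) and 3195, 3396 and 4204 in wild type (3598 ± 534). All 3 agl15 agl18 arrays lay below every array of the other genotypes, whose ranges overlapped. ATG8F was 1.62-fold lower in agl15 agl18 than in wild type (log2 change −0.70, SE 0.20, 95% interval −1.16 to −0.23, limma adjusted p = 0.0466). It did not differ detectably between 35S:AGL15 and wild type, with a log2 change of −0.01 and an interval of −0.48 to 0.45. Between 35S:AGL15 and agl15 agl18 the change was 0.68 (interval 0.22 to 1.15), which just missed the threshold at a limma adjusted p of 0.0556.

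The probe set of ATG8H, the dimmest of the family, read 392, 258 and 427 in 35S:AGL15 (mean 359 ± 89.1, SD), 161, 228 and 170.5 in agl15 agl18 (186 ± 36.1) and 352, 343 and 437 in wild type (377 ± 52.0). The agl15 agl18 arrays were again all below the other 6, and the other 2 genotypes overlapped. ATG8H fell 2.04-fold in agl15 agl18 against wild type (log2 change −1.03, SE 0.25, interval −1.60 to −0.46, limma adjusted p = 0.0247). ATG8H was also the 1 member of 7 called between 35S:AGL15 and agl15 agl18, where it was 1.91-fold higher (log2 change 0.93, interval 0.36 to 1.50, limma adjusted p = 0.0407). In that comparison 10.4% of all probe sets were called higher, 5.27% lower and 15.7% in either direction. ATG8F, ATG8H and ATG3 lay wholly higher there, as did 20.8% of all probe sets, while 13.2% lay wholly lower. Against wild type, ATG8H in 35S:AGL15 had a change of −0.10 (interval −0.67 to 0.47, limma adjusted p = 0.865).

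The calls of ATG8F and ATG8H kept their direction but not their side of the threshold when arrays were left out. In fits without an array of the genotype not compared, the log2 change itself could not move. For ATG8F in agl15 agl18 against wild type, only the fit without 35S:AGL15 replicate 2 made the call (limma adjusted p = 0.0354), and the fits without any other single array gave 0.0552 to 0.141. For ATG8H in that comparison the call was lost without wild type replicates 1, 2 and 3 (limma adjusted p = 0.0634, 0.0671 and 0.0833) and without agl15 agl18 replicates 1 and 3 (0.0742 and 0.0843). For ATG8H in 35S:AGL15 against agl15 agl18, only the fit without 35S:AGL15 replicate 2 made the call (0.0176), with 0.0523 to 0.124 without any other array. ATG8F gained a call in that comparison without 35S:AGL15 replicate 2 (0.0430). With a term for the 4 arrays of brighter spike-in controls, ATG8F changed by −0.71 (limma adjusted p = 0.391) and ATG8H by −1.45 (0.189) in agl15 agl18 against wild type, and 6 probe sets of all were called. In that fit the genotype and the brighter controls can be told apart only through 35S:AGL15 replicate 3.

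ATG3, the enzyme that joins ATG8 to the lipid, had the same order of groups but a smaller difference. Its probe set read 756, 708 and 798 in 35S:AGL15 (mean 754 ± 44.8, SD), 480, 608 and 581 in agl15 agl18 (556 ± 67.3) and 784, 781 and 752 in wild type (772 ± 17.7). The agl15 agl18 arrays were the 3 lowest of the 9, and the other 2 genotypes overlapped. ATG3 had a log2 change of −0.48 in agl15 agl18 against wild type (interval −0.85 to −0.11) and did not pass the threshold (limma adjusted p = 0.0706). Between 35S:AGL15 and agl15 agl18 it differed by 0.45 (limma adjusted p = 0.0971), and between 35S:AGL15 and wild type by −0.04 (interval −0.40 to 0.33). In the reference annotation the ATG3 gene overlaps its neighbours AT5G61490 and AT5G61510, and the other 6 members overlap no gene.

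In bulk tissue such as this, fewer cells of a type and less RNA per cell cannot be told apart. Levels of tissue markers are given beside these changes. The 2 measured senescence genes, SAG29 and WRKY53, summed to 917 to 1873 in 35S:AGL15, 849 to 1514 in agl15 agl18 and 2872 to 3993 in wild type, and neither was at 0. SAG29, a sugar transporter gene active in old leaves, fell in agl15 agl18 against wild type (log2 change −1.86, limma adjusted p = 0.00996), and WRKY53, a transcription factor gene of early leaf senescence, fell in 35S:AGL15 (−1.25, 0.0348). SAG29 was at −1.52 in 35S:AGL15 (0.0552) and WRKY53 at −0.45 in agl15 agl18 (0.245), neither called. The 2 measured embryo genes summed to 2429 to 3464 in 35S:AGL15, 2683 to 3419 in agl15 agl18 and 1817 to 2171 in wild type. Neither was called, with BZIP53 at 0.77 (0.058) and BBM at 0.07 (0.882) in agl15 agl18. Most of these sums was BZIP53 (means 2481, 2484 and 1459 in the same order), while BBM had means of 503, 506 and 485. The 3 measured leaf photosynthesis genes summed to 2717 to 3907 in 35S:AGL15, 4232 to 4952 in agl15 agl18 and 3892 to 5428 in wild type. Most of these sums was RCA, with means of 2295, 3127 and 3236 in that order. Of the 3, PRK, an enzyme of the Calvin cycle, fell in agl15 agl18 against wild type (−1.14, 0.00872). It was higher in 35S:AGL15 than in agl15 agl18 (0.85, 0.0292), while LHCB4.2, a light-harvesting protein, was lower in that last comparison (−1.06, 0.0491). On the agl15 agl18 arrays PRK lay below, and LHCB4.2 above, all arrays of the other genotypes. The call of WRKY53 held without 35S:AGL15 replicates 2 or 3 but not without any other array (0.0533 to 0.129), and that of LHCB4.2 held only without 35S:AGL15 replicate 2 (0.0573 to 0.151 without any other). PRK in 35S:AGL15 against agl15 agl18 was not called without 35S:AGL15 replicate 1, any agl15 agl18 array or wild type replicate 1 (0.0505 to 0.0953). Of 21 alternatives, the calls of WRKY53, LHCB4.2 and PRK just named passed in 8, 7 and 11. Those of SAG29 and PRK in agl15 agl18 against wild type passed in 20 each, with a highest limma adjusted p of 0.118 and 0.280. The root genes EXPA7 and EXPA18, expansins of root hair cells, summed to 248 to 341, 224 to 304 and 151 to 246 in the same order of genotypes. Their most changed values were 0.72 (0.0916) for EXPA18 in agl15 agl18 and 0.43 (0.428) for EXPA7 in 35S:AGL15, neither called. The meristem genes CLV3 and LAS summed to 63.1 to 90.6, 107 to 122 and 98.0 to 192, with LAS at −0.98 (0.151) in 35S:AGL15. The part of these tissue states in the changes of ATG8F and ATG8H was not tested.

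**Figure D2:**
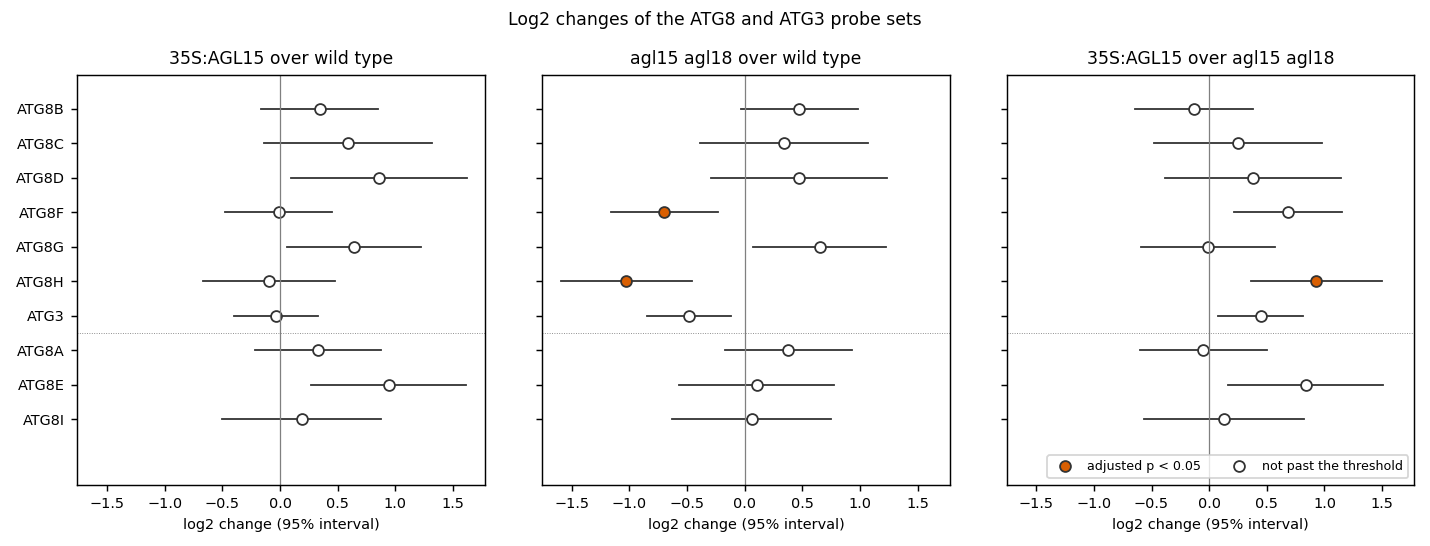
Log2 change with its 95% interval (horizontal axis) for the 7 members and for ATG8A, ATG8E and ATG8I (rows), in 35S:AGL15 over wild type, agl15 agl18 over wild type and 35S:AGL15 over agl15 agl18. Filled points passed an adjusted p of 0.05, which were ATG8F and ATG8H in the second panel and ATG8H in the third.

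In 35S:AGL15 against wild type, 0 of the 7 members were called, where 3.68% of all probe sets were, 1.38% higher and 2.31% lower. At an unadjusted p under 0.05 there were 2, ATG8D and ATG8G, both with higher means in 35S:AGL15, beside 4038 of the 22746. No member had groups that did not overlap, where 8.23% of all probe sets lay wholly higher and 14.8% wholly lower. The median change of the 7 was 0.34, with −0.13 for all probe sets.

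ATG8C, ATG8D and ATG8G, 3 of the copies that are conjugated by ATG3, had their lowest mean log2 intensity in wild type, with the deposited scaling. So did ATG8A, ATG8B, ATG8E and ATG8I. The mean log2 intensities of ATG8C and ATG8D were highest in 35S:AGL15, and that of ATG8G was nearly the same in 35S:AGL15 and agl15 agl18 (difference −0.01). The probe set of ATG8D read 1715, 948 and 1825 in 35S:AGL15, 1228, 992 and 1104 in agl15 agl18 and 586, 730 and 1168 in wild type. 35S:AGL15 replicate 2 was the lowest of its genotype and wild type replicate 3 the highest of its own, and all 3 genotypes overlapped. ATG8D differed by 0.86 between 35S:AGL15 and wild type (interval 0.09 to 1.62, limma adjusted p = 0.228) and by 0.48 between agl15 agl18 and wild type (−0.29 to 1.24, 0.355).

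ATG8G read 1574, 985 and 1581 in 35S:AGL15, 1472, 1247 and 1370 in agl15 agl18 and 697, 858 and 1087 in wild type. The agl15 agl18 arrays all lay above the wild type arrays, while 35S:AGL15 replicate 2 lay among them. The change was 0.64 in 35S:AGL15 (interval 0.06 to 1.22, limma adjusted p = 0.236) and 0.65 in agl15 agl18 (0.07 to 1.23, 0.109), each against wild type. The second passed without 35S:AGL15 replicate 2 (0.0495). Between 35S:AGL15 and agl15 agl18 the interval of the difference was −0.59 to 0.57, so the data neither show a difference nor exclude one of that size.

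ATG8C read 1964, 1124 and 2168 in 35S:AGL15, 1723, 1272 and 1293 in agl15 agl18 and 888, 1017 and 1549 in wild type. Its groups overlapped in all 3 comparisons. The change was 0.59 in 35S:AGL15 (interval −0.14 to 1.32, limma adjusted p = 0.378) and 0.34 in agl15 agl18 (−0.39 to 1.07, 0.497), each against wild type.

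ATG8B read 669, 532 and 551 in 35S:AGL15, 539.5, 741 and 645 in agl15 agl18 and 368, 459 and 569 in wild type. Its groups overlapped as well. The change was 0.34 in 35S:AGL15 (limma adjusted p = 0.458) and 0.47 in agl15 agl18 (0.172), each against wild type.

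Wild type replicate 3 and 35S:AGL15 replicate 2 lay at an end of their genotypes for most of this family. Wild type replicate 1 often lay at the other end. Its log2 deviation from the wild type mean was −0.32 for ATG8B, −0.44 for ATG8D and −0.31 for ATG8G, with 0.31, 0.56 and 0.33 for replicate 3. For ATG3 these were 0.02 and −0.04, and for ATG8H −0.09 and 0.22. Taking the 7 members with ATG8A, ATG8E and ATG8I, wild type replicate 3 was the highest of the 3 wild type arrays for 9 of 10 probe sets, where it was so for 32.8% of all probe sets. 35S:AGL15 replicate 2 was the lowest of its 3 for 10 of 10, where it was so for 29.8% of all. Both held for 9 of 10, against 17.4% of all. Many of the 10 varied together, so they are not separate counts. Over 13647 brighter probe sets the deviations of wild type replicate 3 and 35S:AGL15 replicate 2 from their genotype means correlated at r = −0.64. Those of wild type replicate 1 and 35S:AGL15 replicate 2 correlated at 0.68. The contrast is thus not particular to this family. The median intensity of 35S:AGL15 replicate 2 was 195, with 157 and 147 for replicates 1 and 3. Why these arrays differ from others of their genotypes was not tested.

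A further fit left out wild type replicate 3 and 35S:AGL15 replicate 2, a choice made after the values were seen. It gave 35S:AGL15 against wild type 1844 calls in place of 838, 528 higher and 1316 lower, of the 22746 probe sets. Among the calls were 3 of the 7 members. ATG8C then rose by 1.12 (limma adjusted p = 0.043), ATG8D by 1.43 (0.031) and ATG8G by 1.03 (0.040). In agl15 agl18 against wild type, ATG8G rose by 0.81 (0.032) and ATG8D by 0.75 (0.044), ATG8H fell by 0.92 (0.035), and ATG8F no longer passed, at −0.58 (0.090). Of all 22746 probe sets, 941 were called higher and 3093 lower in that comparison of the same fit. The arrays were left out for their own values of these genes, so these counts are no independent evidence of a change. With only 35S:AGL15 replicate 2 left out, ATG8D and ATG8G in 35S:AGL15 were at limma adjusted p = 0.058 and 0.055, and with any other single array left out no member was called there either. Without wild type replicate 3 alone, ATG8C, ATG8D and ATG8G in 35S:AGL15 against wild type were at 0.83, 1.13 and 0.80. Without wild type replicate 1 alone they were smaller, at 0.42, 0.64 and 0.48 (limma adjusted p = 0.682, 0.519 and 0.532).

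**Figure D3:**
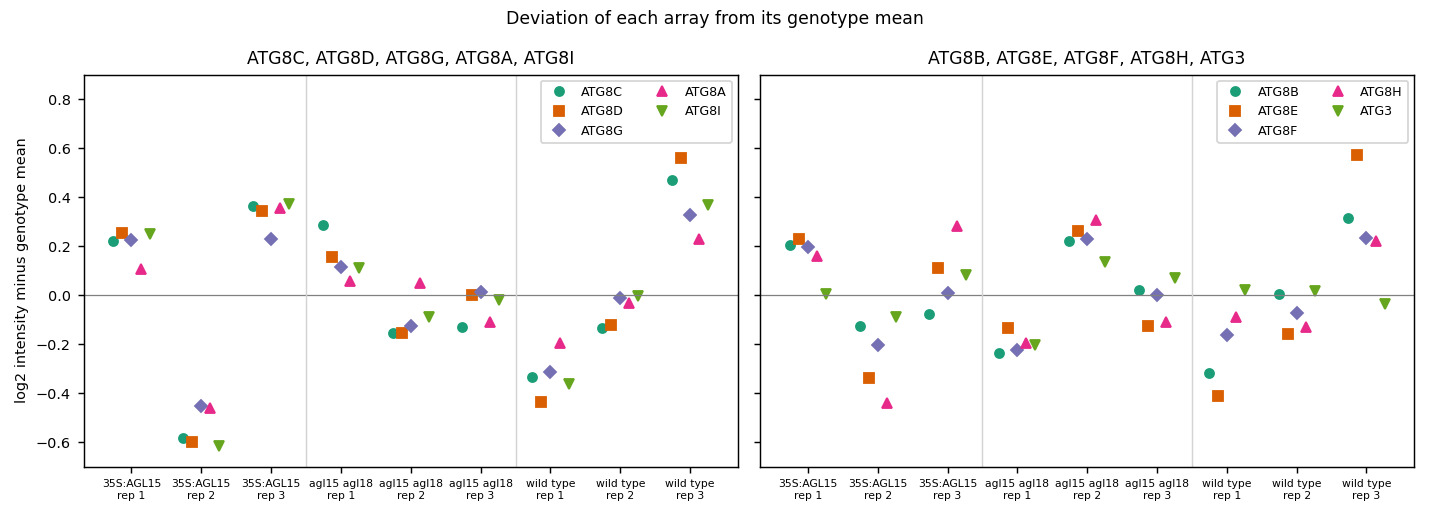
Deviation of each array from the mean of its own genotype, in log2 intensity (vertical axis), for 10 ATG8 and ATG3 probe sets in 2 panels, with 1 marker per probe set and array. All 5 probe sets of the left panel lie lowest on 35S:AGL15 replicate 2 within that genotype and highest on wild type replicate 3 within wild type.

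ATG8C, ATG8D and ATG8G varied together from array to array within a genotype, and ATG8I and ATG8A varied with them. After the genotype means were removed, log2 intensities over the 9 arrays correlated at r = 0.98 for ATG8C with ATG8D, 0.96 for ATG8C with ATG8G and 0.99 for ATG8D with ATG8G. Without wild type replicate 3 and 35S:AGL15 replicate 2 these were 0.85, 0.76 and 0.98 over 7 arrays. ATG8I correlated with ATG8C, ATG8D and ATG8G at 0.96, 0.98 and 0.99 over 9 arrays and 0.77, 0.96 and 0.94 over 7, and ATG8A at 0.92, 0.90 and 0.90 over 9 but 0.59, 0.49 and 0.37 over 7. ATG8F varied with ATG8B (0.93, and 0.92 without the 2 arrays), with ATG8H (0.84 and 0.73) and with ATG8E (0.90 and 0.85). Between ATG8C and ATG8F the value was 0.47 over 9 arrays and −0.76 over 7, so it rested on those 2 arrays. Over 7 arrays, wild type and 35S:AGL15 keep 2 arrays each, whose deviations from their own mean mirror each other. The values over 7 arrays thus hold fewer independent points than arrays. With genotype means kept, ATG8D had rank 3 of 22745 probe sets in likeness to ATG8C, and ATG8G, ATG8A and ATG8I had ranks 232, 260 and 289. Many probe sets outside the family thus followed ATG8C more closely than those 3 did. The arrays share their scaling and RNA composition, and these correlations are given as descriptions only.

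The position of each copy within the family can be read free of any factor that multiplies all values of an array. For this the mean log2 intensity of the 6 ATG8 members on an array was subtracted from each of them, a measure chosen after the values were seen and given without a test. Since the 6 centred values of an array sum to 0, a copy that is lower in the family has others that are higher. Any sign below is relative to the family and does not say which copy changed.

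Centred on the family, ATG8H stood at −1.77, −1.76 and −1.63 in 35S:AGL15, −2.47, −2.04 and −2.37 in agl15 agl18 and −1.05, −1.29 and −1.37 in wild type. The 3 genotypes formed separate tiers, with wild type on top and agl15 agl18 at the bottom. ATG8G also formed 3 tiers, in another order: 0.24, 0.17 and 0.26 in 35S:AGL15, 0.72, 0.41 and 0.63 in agl15 agl18 and −0.07, 0.04 and −0.05 in wild type. On this measure 16.6% of all probe sets lay wholly lower in 35S:AGL15 than in wild type and 2.74% wholly higher. The shares were 24.9% lower and 10.6% higher for agl15 agl18 against wild type, and 20.0% lower and 8.82% higher for 35S:AGL15 against agl15 agl18. The members are centred on their own mean and the other probe sets are not, so these shares are no baseline for the tiers.

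ATG8F stood at 1.60, 1.81 and 1.43 in 35S:AGL15, 1.08, 1.46 and 1.32 in agl15 agl18 and 2.13, 2.02 and 1.90 in wild type. Both other genotypes lay wholly below wild type in this measure and overlapped each other. ATG8D stood at 0.36, 0.12 and 0.47 in 35S:AGL15, 0.46, 0.08 and 0.32 in agl15 agl18 and −0.31, −0.19 and 0.05 in wild type, so both lay wholly above wild type. ATG8B in agl15 agl18 lay wholly above wild type, its 35S:AGL15 arrays overlapped both, and ATG8C overlapped in all 3 comparisons.

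**Figure D4:**
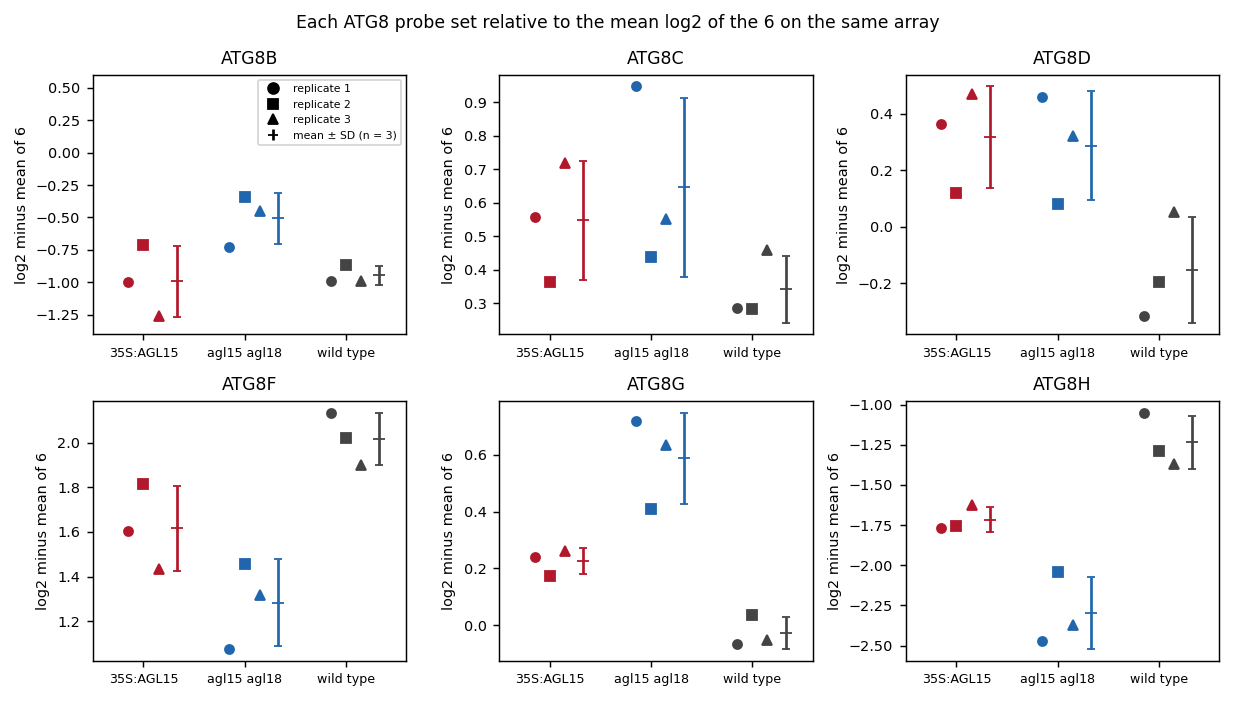
Log2 intensity of each ATG8 member minus the mean of the 6 on the same array (vertical axis), with 1 point per array of 35S:AGL15, agl15 agl18 and wild type. ATG8H and ATG8G form 3 separate tiers, with wild type highest for ATG8H and lowest for ATG8G.

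The size of the changes in agl15 agl18 depended on how arrays were scaled. The median change over all probe sets was −0.16 with the deposited scaling, 0.06 after quantile normalization, 0.36 after median centring and −0.89 after scaling to the spike-in controls. The share of calls that were lower was 79.4%, 56.3%, 27.9% and 98.8% under these 4 scalings. In 35S:AGL15 against wild type that share was 62.6%, 48.7%, 42.1% and 72.4%, and in 35S:AGL15 against agl15 agl18 it was 33.6%, 47.7%, 67.6% and 6.14%. ATG8F in agl15 agl18 was at −0.70, −0.88, −0.18 and −1.43, called in all but median centring (limma adjusted p = 0.626). ATG8H was at −1.03, −0.62, −0.51 and −1.76, called with the deposited and spike-in scalings but not after quantile normalization (0.199) or median centring (0.259). Both stayed below wild type under all 4.

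ATG8B, ATG8C, ATG8D and ATG8G in agl15 agl18 were above wild type under 3 of the 4 scalings and below it with spike-in scaling. ATG8G was at 0.65, 0.69, 1.17 and −0.08, and it was called after median centring (limma adjusted p = 0.034), as was ATG8B at 0.99 (0.026). ATG3 was at −0.48, −0.34, 0.04 and −1.21, so it changed sign with median centring and passed with spike-in scaling (0.036).

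**Figure D5:**
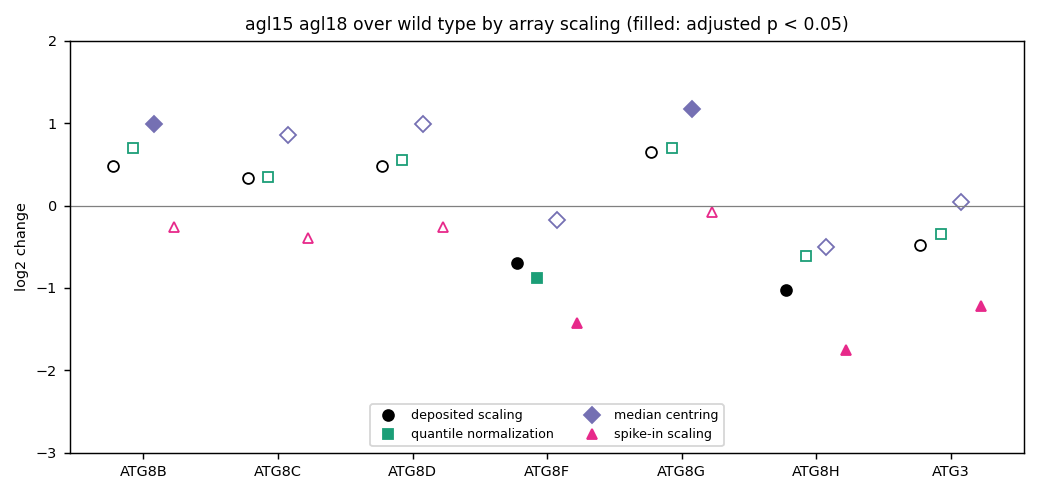
Log2 change in agl15 agl18 over wild type (vertical axis) for the 7 members under 4 scalings of the arrays, with filled symbols at an adjusted p under 0.05. ATG8F and ATG8H lie below 0 under all 4, ATG3 lies at 0.04 after median centring, and the remaining 4 are above 0 under all but spike-in scaling.

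Of the other family members on the array, ATG8E had the largest difference in 35S:AGL15. Its probe set read 731, 494 and 673 in 35S:AGL15, 318, 419 and 320.2 in agl15 agl18 and 244, 291 and 483 in wild type. All 3 35S:AGL15 arrays lay above all others, yet the change against wild type, 0.94, was not called (limma adjusted p = 0.140), nor was that against agl15 agl18, 0.84 (0.090). ATG8A was at 0.33 in 35S:AGL15 (0.504) and 0.38 in agl15 agl18 (0.301) against wild type, and ATG8I at 0.19 (0.769) and 0.06 (0.914). Without wild type replicate 3 and 35S:AGL15 replicate 2, ATG8E in 35S:AGL15 was at 1.40 (0.034).

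The rest of the pathway was covered by 20 of 59 listed genes. Of these 20, 0 rose and 1 fell in 35S:AGL15 against wild type, 0 rose and 2 fell in agl15 agl18 against wild type, and 1 rose and 0 fell in 35S:AGL15 against agl15 agl18. Of all probe sets, 1.38% rose and 2.31% fell, 3.90% rose and 15.0% fell, and 10.4% rose and 5.27% fell in these comparisons, so the 20 genes are not set apart by their counts. Their median changes were 0.00, −0.27 and 0.18, beside −0.13, −0.16 and 0.08 for all probe sets. No call fell on the 5 measured conjugation genes, the 1 gene of the PI3K and ATG9 group, the 1 cargo receptor or the 3 genes of the TOR and SnRK1 kinases.

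ATG1A, a kinase of the complex that starts autophagosome formation, read 819, 689 and 635 in 35S:AGL15, 417, 447 and 369 in agl15 agl18 and 708, 645 and 647 in wild type. All agl15 agl18 arrays were below the others. ATG1A fell by 0.70 in agl15 agl18 against wild type (SE 0.17, limma adjusted p = 0.0248) and was 0.79 higher in 35S:AGL15 than in agl15 agl18 (0.0213). It was the 1 gene called among 6 measured genes of the ATG1 complex. The first call passed in 11 of 21 alternatives. Its losses included quantile normalization (0.0602), median centring (0.508), the term for 4 arrays of brighter spike-in controls (0.463) and the fits without wild type replicates 1, 2 and 3 (0.0871, 0.0805 and 0.0675) or agl15 agl18 replicates 1 and 3 (0.0579 and 0.0958). The second passed in 14 of 21, and its losses included median centring (0.0986), that term (0.161), arrays of the 2 genotypes only (0.0823) and the fits without 35S:AGL15 replicate 1 (0.0739) or agl15 agl18 replicates 1 and 3 (0.0513 and 0.0813). ATG1B, ATG1C, ATG1T and ATG101 in agl15 agl18 also lay wholly below wild type without a call, as did 30.3% of all probe sets, while ATG13B overlapped. The 6 genes had a median change of −0.51 there, with −0.16 for all probe sets. That median includes ATG1T, which read 20.3 on agl15 agl18 replicate 1, below the background of 40.5 on that array. It also includes ATG13B, which was dim, between 19.2 on wild type replicate 1 and 52.7 on agl15 agl18 replicate 3.

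ALPHA-VPE, a vacuolar processing protease, read 333, 466 and 328 in 35S:AGL15, 208, 322 and 126 in agl15 agl18 and 2123, 1126 and 1095 in wild type. Both other genotypes lay wholly below wild type. ALPHA-VPE was 6.75-fold lower in agl15 agl18 (log2 change −2.76, limma adjusted p = 0.00462) and 3.72-fold lower in 35S:AGL15 (−1.90, 0.0414). The call in agl15 agl18 passed in 20 of 21 alternatives, with a highest limma adjusted p of 0.197. The call in 35S:AGL15 passed in 8 of 21 alternatives, and among the fits that left out an array it was lost without 35S:AGL15 replicates 1 and 3 (0.135 and 0.113), agl15 agl18 replicate 1 (0.0638) or wild type replicates 1, 2 and 3 (0.133, 0.106 and 0.0764). ALPHA-VPE was the 1 gene called among 4 measured genes of vacuolar processing and fusion.

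Among genes with no call, SH3P2, which binds ATG8 and autophagosome membranes, was at −0.74 in agl15 agl18 against wild type (limma adjusted p = 0.0603). ATG14A, of the lipid kinase complex, was at −0.62 (0.249) and ATG16, which works with ATG5 and ATG12 in conjugation, at −0.33 (0.352). The value of ATG14A is that of its brighter probe set, and its dimmer one was at −0.72 (limma adjusted p = 0.467). The SnRK1 kinase subunits KINBETA2 and KINBETA1 were at 0.46 (0.0668) and 0.88 (0.0952) in agl15 agl18. RAPTOR1, a partner of the growth kinase TOR, was at −0.25 in 35S:AGL15 (0.701).

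The genes whose intensities most resembled those of each member were taken from the 1628 probe sets that carry a symbol, by Pearson's r of log2 intensity over the 9 arrays, as a description. For ATG8C the nearest was ATG8D (r = 0.974) and then FIP2 (0.963), and for ATG8D the nearest were ATG8C and FIP2 (0.963). For ATG8F they were KELP (0.982) and VPS24.1 (0.975), and for ATG8H they were SNF7.1 (0.974) and scpl48 (0.968). VPS24.1 and SNF7.1 are both subunits of ESCRT-III, which cuts membranes at endosomes. For ATG8G they were LSM6B (0.978) and BZIP53 (0.962), for ATG8B PyrD (0.909) and PDF1.4 (0.909), and for ATG3 rps16 (0.985, above background on 8 arrays) and COR47 (0.982).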

How the data were processed

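The authors deposited 1 linear intensity per probe set and array. The sources used here give no summary method, software or background correction. Intensities were neither zero nor negative, and log2 was taken with no offset. Of 22810 probe sets, 64 controls were left out. Genotype means over all 9 arrays were fitted with limma 3.58.1 (lmFit, eBayes) in R 4.3.3, two-sided. The platform annotation gave the gene of a probe set: 13513 probe sets had 1 gene, 503 several and 8730 none, and 13436 of the first matched the reference table. Gene symbols came from the reference table, and from the platform annotation where that table gave none. The probe sets annotated APG8A and APG8H (AT4G21980 and AT3G15580) are called ATG8A and ATG8I. Where a listed gene had more than 1 probe set, as ATG1C and ATG14A did, the one with the highest mean log2 intensity was used for counts and medians. The members, the gene lists (31 of 89 genes measured) and the naming rule (all called genes of a list up to 6, otherwise up to 3 by adjusted p, and the 2 most alike genes) were chosen with earlier results of these data known. No paired analysis was used, because 3 of 9 same-numbered pairs of arrays correlated above 0.1 (range −0.49 to 0.36, over 13647 brighter probe sets). Only 3 arrays per genotype limit the precision. The fit was tested on simulated data. There were 19 planned and 2 added alternatives.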

Additional observations from a re-analysis of the deposited data

How the results depend on the processing

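Over 21 alternatives, ATG8F in agl15 agl18 against wild type kept its direction in all and its call in 8. ATG8H kept its direction in all and its call in 11 there. In 35S:AGL15 against agl15 agl18 it kept its direction in all and its call in 7. Several of these fits leave the difference of the group means unchanged, so its direction could not turn in them. Among them are the replicate block, arrays of the 2 genotypes only and fits without an array of the genotype not compared. The cause of the lost calls was not tested, except that a fit without an array has fewer samples. Calls numbered 838 in 35S:AGL15 against wild type, 4304 in agl15 agl18 against wild type and 3567 in 35S:AGL15 against agl15 agl18. With spike-in scaling they were 239, 6466 and 2314. For 35S:AGL15 against wild type they were 1417 with values raised to background, 1525 with an offset of 32, 427 with arrays of the 2 genotypes only and 1844 without wild type replicate 3 and 35S:AGL15 replicate 2. For 35S:AGL15 against agl15 agl18 they were 867 with arrays of the 2 genotypes only and 2007 with a term for the array with the brightest spike-in controls. With a term for 4 such arrays, agl15 agl18 against wild type had 6 calls and 35S:AGL15 against agl15 agl18 had 290. Leaving out single arrays gave 191 to 1867, 1829 to 5673 and 1032 to 4192 calls in the 3 comparisons in that order.

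With the replicate number as a block, calls numbered 320, 3343 and 2066, and ATG8F (limma adjusted p = 0.0917) and ATG8H (0.055) in agl15 agl18 against wild type and ATG8H in 35S:AGL15 against agl15 agl18 (0.0801) no longer passed. The numbers did not pair the arrays by the check used, and the cause of these losses was not tested.

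Signs turned in the following fits, and the cause was not tested. In 35S:AGL15 against wild type, median centring gave 0.23 for ATG8F, 0.15 for ATG8H and 0.21 for ATG3, quantile normalization gave 0.062 for ATG8H, and without both arrays named above ATG8F was at 0.21 and ATG8H at 0.24. In agl15 agl18 against wild type, spike-in scaling gave −0.26 for ATG8B, −0.39 for ATG8C, −0.26 for ATG8D, −0.081 for ATG8G, −0.35 for ATG8A, −0.63 for ATG8E, −0.67 for ATG8I, −0.28 for KINBETA2, −0.66 for BBM and −0.015 for EXPA18. The term for 4 arrays gave −0.21 for ATG8C, −0.042 for ATG8D, −0.15 for ATG8A, −0.059 for ATG8E, −0.50 for ATG8I and 0.29 for ATG16. Median centring gave 0.037 for ATG3 and 0.19 for ATG16, quantile normalization −0.13 for ATG8I, and the term for 1 array −0.027 for BBM. In 35S:AGL15 against agl15 agl18, spike-in scaling gave 0.41 for ATG8B and 0.53 for ATG8G, and median centring −0.024 for ATG8C. For ATG8G the term for 1 array gave 0.045, that for 4 arrays 0.22, and the fit without both arrays 0.21. Without single arrays, 35S:AGL15 against wild type ran from −0.11 to 0.10 for ATG8F, −0.24 to 0.13 for ATG8H and −0.078 to 0.0078 for ATG3. ATG8G in 35S:AGL15 against agl15 agl18 ran from −0.13 to 0.21. In agl15 agl18 against wild type ATG8E ran from −0.10 to 0.39, ATG8I from −0.12 to 0.24 and BBM from −0.084 to 0.16.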
